A study of Astyanax mexicanus with 6 samples.

Results

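Of the 75330 liver open-chromatin regions found on the 25 assembled chromosomes of Astyanax mexicanus, 2845 had a peak in the surface form and in the Pachon cave form and none in the Tinaja cave form. They are called Tinaja-lacking regions here. They were obtained by merging all overlapping or touching peaks of the 3 lists, 1 per form, and keeping chromosomal regions with at least 1 Surface peak, at least 1 Pachon peak and no Tinaja peak. The whole genome, unplaced scaffolds included, held 110214 regions. Since the regions were selected on presence and absence in these same lists, their number and pattern are given as a description, without a test.

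The Mexican tetra lives in rivers as a sighted surface fish and in caves as eyeless forms, without light and with scarce food. Cave fish of this species are known for storing fat, including in the liver, and for enduring starvation. Open chromatin is DNA that is not tightly packed around nucleosomes, as is usual at active promoters and enhancers. The assay used, ATAC-seq, finds it with the Tn5 transposase, which inserts sequencing adapters where DNA is accessible, and a peak is a stretch dense in such insertions. A region open in Surface and Pachon but not listed in Tinaja is one in which the peak lists of the cave forms differ. There the Pachon list, like the Surface list, holds a peak.

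All samples were liver. Each form, labelled Surface, Pachon cave or Tinaja cave, had 2 replicates but 1 peak list, recorded under replicate 1. They name no age, sex, diet or laboratory stock, and no treatment. On the chromosomes the Surface list held 50924 peaks over 34.5 Mb, the Pachon list 50115 over 31.5 Mb and the Tinaja list 58238 over 37.2 Mb. The Tinaja list was thus 1.14 times as long as the Surface list, and counts from lists of equal length are given beside the first result. The lists hold no replicate values, read depth or peak height, so no spread between fish can be set beside any value. A missing peak means that none was listed, not that the DNA was shown to be closed.

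Tinaja-lacking regions were the smallest of the 7 classes of chromosomal regions. They made up 3.78% of them (Wilson 95% interval 3.64 to 3.92, counting error only) and covered 1.87 Mb. Regions missing from Pachon only numbered 4914, regions missing from Surface only 7768, and regions of all 3 forms 32629. Read against the regions that Surface and Pachon both held, 2845 of 35474 lacked a Tinaja peak, or 8.02% (interval 7.74 to 8.31). The same share was 13.1% for regions of Surface and Tinaja without a Pachon peak and 19.2% for regions of both caves without a Surface peak. Over all regions held by any other form, single-form regions included, the share without a peak was 28.6% for Tinaja, 38.0% for Pachon and 38.5% for Surface. Regions missing from Pachon only were 1.73 times as numerous as Tinaja-lacking ones, and they outnumbered them on 25 of 25 chromosomes. This order turned when the same number of widest peaks, 50115, was kept from each list. Tinaja-lacking regions then numbered 4363 and the ratio was 0.838. Of those 4363 regions, 1577 (36.1%) held in the full list a Tinaja peak that the setting left out, which by its construction removes 8123 Tinaja peaks, 809 Surface peaks and no Pachon peak. The narrowest peak it kept measured 287 bp in Tinaja, but 218 bp in Surface and 221 bp in Pachon. With the same lower limit of width for all lists, 300 or 500 bp, the ratio was 1.75.

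Most Tinaja-lacking regions were simple pairs of narrow peaks. In 2789 of 2845 (98.0%) a single Surface peak met a single Pachon peak. Another 30 held 2 Surface peaks and 1 Pachon peak, 23 held 1 Surface and 2 Pachon peaks, and 2 held 2 of each. The last, on chromosome 3 at positions 6925190 to 6927658, was singled out after its values were seen. Its Surface peak of 2469 bp spanned 4 Pachon peaks of 322 to 500 bp, and the nearest Tinaja peak lay 2746 bp away. In all, these regions took in 5.65% of the chromosomal Surface peaks and 5.73% of the Pachon peaks. A single peak of each list was also the rule in regions missing from Pachon only (4841 of 4914) and from Surface only (7611 of 7768). Of regions of all 3 forms, 30968 of 32629 held 1 Surface and 1 Pachon peak.

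Their peaks were of intermediate width, narrower than in regions of all 3 forms and wider than in regions of 1 form. A wider peak is more easily touched by peaks of other lists, so this order is in part set by the merging rule. How far was not tested. The median Surface peak measured 445 bp in Tinaja-lacking regions (order-statistic 95% interval 435 to 455), 652 bp in regions of all 3 forms and 354 bp in Surface-only regions. The median Pachon peak measured 373 bp (interval 363 to 381), against 593 bp in regions of all 3 forms and 322 bp in Pachon-only regions. Peaks of at least 1000 bp made up 9.14% of the Surface peaks and 5.01% of the Pachon peaks in Tinaja-lacking regions. In regions of all 3 forms these shares were 22.9% and 17.2%. The other regions held by exactly 2 lists had peaks of like width, with medians of 414 bp in Surface and 379 bp in Tinaja for regions missing from Pachon only. For regions missing from Surface only, the medians were 397 bp in Pachon and 445 bp in Tinaja.

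**Figure D1:**
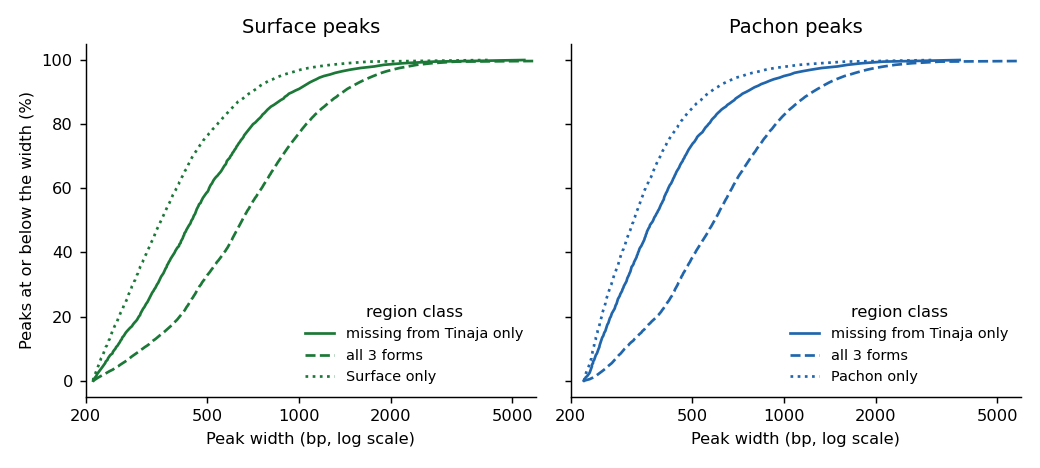
Cumulative share of peaks (y axis, %) at or below a given width (x axis, bp, log scale) for Surface peaks (left) and Pachon peaks (right), in Tinaja-lacking regions (solid), regions of all 3 forms (dashed) and regions of that form only (dotted). In both panels the solid line lies between the others, with medians of 445 bp in Surface and 373 bp in Pachon. Wider peaks are more easily touched by other lists, so this order is in part set by the merging rule.

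A Tinaja peak was missing far more often from weak pairs of peaks than from strong ones. The lists carry no peak height, so strength is taken here as the length covered by peaks in whichever of the paired lists covers less. Any Tinaja peak that touches a region takes it out of the class, and longer regions offer more bases to touch. The shares by length are thus in part set by the rule, and how far was not tested. Its median in Tinaja-lacking regions was 329 bp, with quartiles of 262 and 444 bp. Among regions of Surface and Pachon, 19.5% lacked a Tinaja peak where this length was under 300 bp (1145 of 5883). The share was 10.8% from 300 to under 500 bp (1190 of 11032), 3.07% from 500 to under 1000 bp (409 of 13328) and 1.93% from 1000 to under 2000 bp (88 of 4570). At 2000 bp or more, 13 of 661 regions lacked Tinaja, or 1.97% (interval 1.15 to 3.34). Lengths under 500 bp accounted for 82.1% of Tinaja-lacking regions against 44.7% of regions of all 3 forms, and lengths of 1000 bp or more for 3.55% against 15.7%.

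The corresponding shares for regions of Surface and Tinaja lacking Pachon were 33.6% under 300 bp, 17.9% from 300 to under 500 bp, 4.62% from 500 to under 1000 bp and 2.46% from 1000 to under 2000 bp. All of these were above the Tinaja-lacking shares. From 1000 to under 2000 bp, however, the intervals overlap (2.06 to 2.93 for regions lacking Pachon, 1.57 to 2.37 for regions lacking Tinaja). At 2000 bp or more the order was the other way, with 7 of 714 regions lacking Pachon (0.980%, interval 0.476 to 2.01), but the intervals overlap. Regions lacking Surface had the highest share in every width class, 40.2% under 300 bp and 5.35% at 2000 bp or more. These shares are not adjusted for the Tinaja list holding more peaks than the others, nor for longer regions being more easily touched. With equal numbers of widest peaks the order of the Pachon-lacking and Tinaja-lacking counts turned, and shares by width were not computed there.

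**Figure D2:**
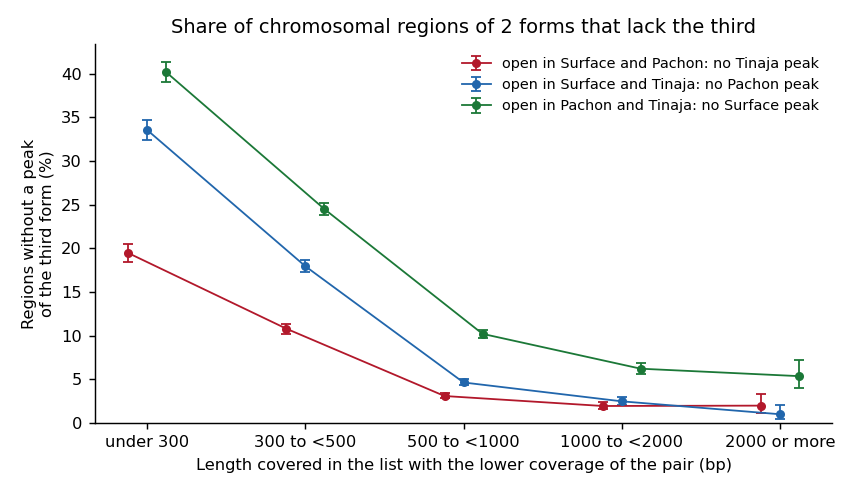
Percentage of chromosomal regions open in a given pair of forms that have no peak of the third form (y axis), by the length covered in the list with the lower coverage (x axis, bp). Points are shares of 1 list per form, bars are Wilson 95% intervals, which cover counting error only. The line for regions lacking Tinaja runs from 19.5% to 1.97% and lies below the others except at 2000 bp or more, where it is above that for regions lacking Pachon. The lists differ in length, and the shares are not adjusted for it.

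Within a Tinaja-lacking region the Surface peak was usually the wider. Of the 2789 regions with 1 peak of each list, the Surface peak was wider in 1752 (62.8%) and the Pachon peak in 1026, and the median ratio of widths, Surface over Pachon, was 1.13. In regions of all 3 forms with 1 Surface and 1 Pachon peak the Surface peak was wider in 59.5% and the median ratio was 1.05. A Surface peak at least 2 times as wide as the Pachon peak was found in 385 Tinaja-lacking regions (13.8%), against 5.75% of regions of all 3 forms. The reverse, a Pachon peak at least 2 times as wide, was found in 138 (4.95%), against 3.52%. At matched width of the narrower peak, the median ratio was higher in Tinaja-lacking regions in 4 of 5 width classes. It was 1.16 against 0.996 in regions of all 3 forms under 300 bp, 1.13 against 1.07 from 300 to under 500 bp and 1.11 against 1.06 from 500 to under 1000 bp. From 1000 to under 2000 bp it was 1.01 against 1.02, and at 2000 bp or more, with 12 Tinaja-lacking regions, 1.19 against 1.01.

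The paired peaks lay largely on the same bases. The median overlap was 100% of the shorter peak and the lower quartile 91.6%, and 145 regions (5.20%) overlapped by under 50% of the shorter peak. Pairs in the other classes overlapped somewhat more. The median was also 100% in regions missing from Pachon only, missing from Surface only and of all 3 forms. Their lower quartiles were 92.7, 95.1 and 97.3%, and 4.38, 2.71 and 1.19% overlapped by under 50%. The Pachon peak lay wholly inside a wider Surface peak in 996 Tinaja-lacking regions (35.7%), against 33.5% of regions of all 3 forms. The Surface peak lay inside a wider Pachon peak in 488 (17.5%), against 22.8%. Midpoints were a median of 67.5 bp apart in Tinaja-lacking regions. The shared length divided by the union had a median of 0.628, against 0.779 in regions of all 3 forms. With the narrower peak at 300 to under 500 bp the medians were 0.646 and 0.699, and at 1000 to under 2000 bp they were 0.840 and 0.894. By the rule the paired peaks of such a region must overlap or touch, since no other peak can join them. None of the 2789 pairs was joined by touching alone.

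The median distance from a Tinaja-lacking region to the nearest Tinaja peak was 3683 bp (interval 3395 to 3905), with quartiles of 1396 and 8433 bp. In 31 regions (1.09%) a Tinaja peak lay within 200 bp, in 482 (16.9%) within 1000 bp, and in 1161 (40.8%) none lay within 5000 bp. Regions with none within 20000 bp numbered 210, and with none within 50000 bp 24. Regions missing from Pachon only were a median of 4300 bp from the nearest Pachon peak, and regions missing from Surface only 7104.5 bp from the nearest Surface peak. The form they lack had a peak within 200 bp in 0.468% of the former and 0.579% of the latter, and within 1000 bp in 15.4% and 10.0%. Among these classes such close cases were most frequent in Tinaja-lacking regions, and the Tinaja list held the most peaks. They were not particular to the class. A Tinaja peak lay within 200 bp of 1.35% of Surface-only and 1.66% of Pachon-only regions, and within 1000 bp of 19.7% and 14.1%. Among Tinaja-lacking regions, the median distance was 5042 bp for the 101 whose peaks covered at least 1000 bp in both lists and 3396 bp for those under 300 bp in either.

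**Figure D3:**
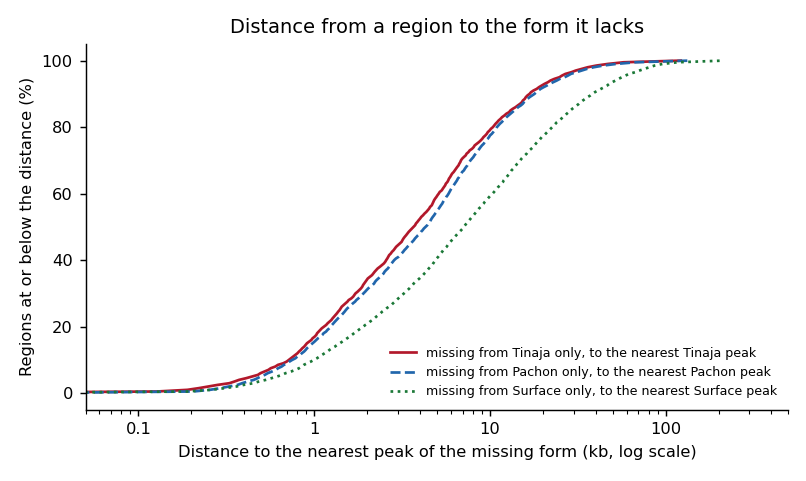
Cumulative share of regions (y axis, %) at or below a given distance (x axis, kb, log scale) from the nearest peak of the form they lack, for the 3 classes of regions held by exactly 2 lists. Tinaja-lacking regions (solid) have a median of 3683 bp, close to regions missing from Pachon only (dashed, 4300 bp), and regions missing from Surface only (dotted) lie farther out at 7104.5 bp.

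The regions next to the threshold show what separates the class from regions of all 3 forms. The Tinaja-lacking regions nearest to a Tinaja peak lay 4 bp from one on chromosome 17 at positions 9046122 to 9046509, 25 bp on chromosome 22 at 24688756 to 24689091, and 27 bp on chromosome 10 at 21003797 to 21004320. Just outside, Tinaja peaks reached the peaks of the other forms by 2 bp on chromosome 23 (22124238 to 22124782), 5 bp on chromosome 1 (15528924 to 15530036) and 8 bp on chromosome 9 (41273715 to 41275242). Of 32570 regions of all 3 forms in which Surface and Pachon peaks shared bases, Tinaja covered none of the shared bases in 74 (0.227%) and under 50% of them in 616 (1.89%).

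The Tinaja peak nearest to a Tinaja-lacking region was of the kinds that make up the Tinaja list, in close to the same shares. It belonged to a region of all 3 forms for 1691 Tinaja-lacking regions (59.4%), beside 57.7% of all chromosomal Tinaja peaks. It was a Tinaja-only peak for 546 (19.2%), beside 20.4% of all Tinaja peaks. For the 482 regions with a Tinaja peak within 1000 bp, the nearest was in a region of all 3 forms in 318 (66.0%) and Tinaja-only in 72 (14.9%). Tinaja-only peaks were thus a smaller share of these close neighbours than of all Tinaja peaks. Of all Tinaja-only regions, 8.77% lay within 1000 bp of a Surface peak and 10.7% within 1000 bp of a Pachon peak. Whether the smaller share is particular to Tinaja-lacking regions was not tested.

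The 15 strongest Tinaja-lacking regions had strengths of 1940 to 3732 bp and lay on 10 chromosomes. The strongest, on chromosome 22 at positions 15697535 to 15701300, had a Surface peak of 3766 bp and a Pachon peak of 3732 bp whose ends differed by little, and the nearest Tinaja peak was a Tinaja-only peak of 352 bp lying 3096 bp away. On chromosome 6, at 28868206 to 28872524, the Surface peak measured 4241 bp and the Pachon peak 3454 bp, and the nearest Tinaja peak, of 295 bp, was 3378 bp away. In both regions the Pachon peak lay wholly or almost wholly within the Surface peak.

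On chromosome 9, at 10388534 to 10392631, peaks of 4098 bp in Surface and 3134 bp in Pachon had no Tinaja peak within 16285 bp, the farthest among the 15. On chromosome 23, at 34635830 to 34640475, a Surface peak of 4646 bp enclosed a Pachon peak of 3005 bp, with the nearest Tinaja peak 8916 bp away. On chromosome 21, at 13547296 to 13550866, the Surface peak of 3571 bp was 1.72 times as wide as the Pachon peak of 2075 bp, the largest such ratio of the 15. The Surface list covered more of the region than the Pachon list in 13 of them.

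The exceptions were chromosome 17 at 5095735 to 5098034, with 2069 bp in Surface and 2300 bp in Pachon, and chromosome 5 at 20470880 to 20473552, with 1988 and 2098 bp. The remaining strong regions were on chromosome 4 at 22426717 to 22430020, chromosome 6 at 32689029 to 32692076, chromosome 9 at 30775281 to 30777740, chromosome 19 at 22739483 to 22742223, and chromosome 23 at 1887427 to 1889937 and at 19450032 to 19452199. Their strengths were 1940 to 2367 bp. In 13 of the 15 no Tinaja peak lay within 1000 bp, and the closest was 531 bp away, beside the region on chromosome 19.

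Of the 15, 2 were neighbours on chromosome 10, inside a block of broad peaks that Tinaja largely lacked. The region at 30427806 to 30430673 had 2868 bp in Surface and 2560 bp in Pachon. The next, at 30432443 to 30435347, had 2882 bp in Surface and 2876 bp in Pachon, and 1769 bp separated them. Within 10 kb on either side of the centre of the latter lay 6 regions, of which 4 were Tinaja-lacking. The further ones were 30424836 to 30426231, with 1396 bp in Surface and 1238 bp in Pachon, and 30442555 to 30444178, with 1401 and 1476 bp. A Pachon-only region of 299 bp lay between them. The remaining one, at 30435701 to 30438855, was the only one of the 6 with a Tinaja peak, and that peak of 1688 bp was narrower than the Surface peak of 3155 bp and the Pachon peak of 2839 bp. This block was described after its values were seen.

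**Figure D4:**
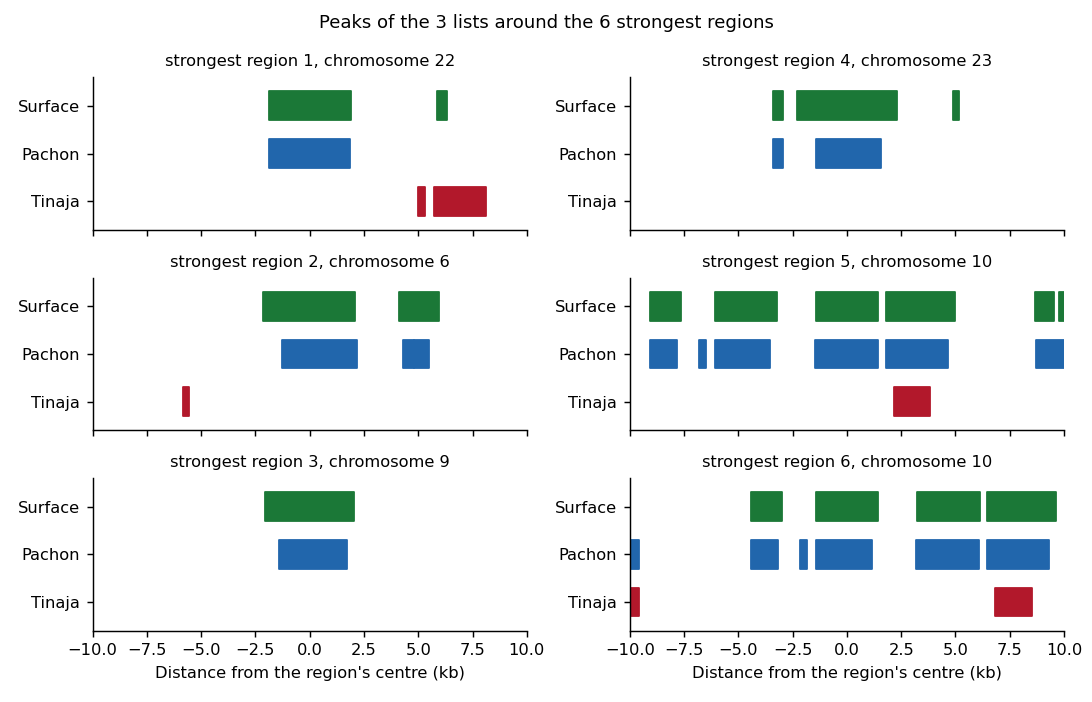
Peaks of the Surface, Pachon and Tinaja lists (rows) within 10 kb of the centre of the 6 strongest Tinaja-lacking regions (x axis, distance from the region's centre in kb), bars drawn to scale from start to end of each peak. No Tinaja bar lies opposite the central Surface and Pachon bars in any panel. The Tinaja row is empty throughout only in the panels for chromosomes 9 and 23. The panels for chromosome 10 show the same block, where 1 Tinaja peak of 1688 bp stands beside broad Surface and Pachon peaks. Panel 6 also shows a Tinaja bar at its left edge.

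The regions farthest from any Tinaja peak were not among the strong ones. They lay on chromosome 1 at 1269418 to 1269831, 121921 bp from the nearest Tinaja peak, on chromosome 5 at 15629144 to 15629600 (108356 bp), 3269660 to 3271137 (102907 bp) and 4617851 to 4618485 (82249 bp), and on chromosome 15 at 14283195 to 14283546 (78690 bp). Their strengths were 243 to 385 bp, beside a median of 329 bp and quartiles of 262 and 444 bp in all Tinaja-lacking regions. In 1 of them, at 3269660 on chromosome 5, a Surface peak of 1382 bp met a Pachon peak of 281 bp over 185 bp.

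Tinaja-lacking regions were found on every chromosome. Between 27 and 246 lay on each, and their share of a chromosome's regions ran from 3.02% on chromosome 11 (27 of 893, interval 2.09 to 4.36) to 4.94% on chromosome 2 (135 of 2732, interval 4.19 to 5.82), with a median of 3.75%. Chromosome 17 came next to chromosome 2 with 4.92% (109 of 2217, interval 4.09 to 5.90). On these last 2 the interval lay above the share of all chromosomes, 3.78%, and on no chromosome did it lie below. The 25 intervals are not adjusted for their number, and some can lie outside by counting error alone. Chromosome 17 also had the fewest Tinaja peaks per Surface peak, 1.03 against a median of 1.14 over chromosomes, and the lowest share of Tinaja-only regions, 11.2% against a median of 15.8%. On chromosome 2 these values were 1.09 and 15.8%. Over the 25 chromosomes, Pearson's r between the share of Tinaja-lacking regions and the number of Tinaja peaks per Surface peak was -0.43 and Spearman's rho -0.32. Both measures come from the same lists and share the missing peaks. With only peaks of at least 500 bp, chromosome 2 stood at 3.47% and ranked 23 of 25, and chromosome 7 had the highest share, 5.59%.

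**Figure D5:**
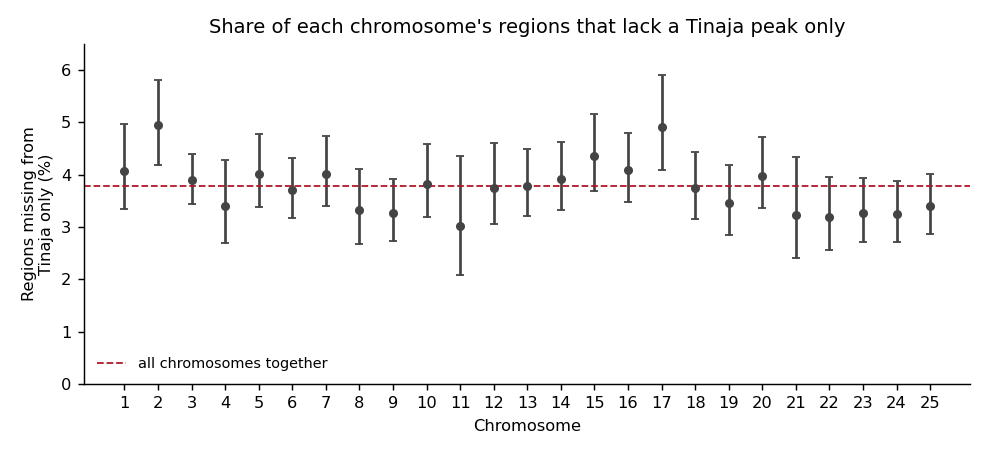
Percentage of the union regions of each chromosome (x axis) that are Tinaja-lacking (y axis), with Wilson 95% intervals that cover counting error only. The dashed line is the share of all chromosomes together, 3.78%, and only the intervals of chromosomes 2 and 17 lie wholly above it. The intervals are not adjusted for their number.

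Along the chromosomes the share was even. In 5 equal parts of each chromosome, in order of position, it was 3.71, 3.59, 4.03, 3.74 and 3.81%. The lists give no chromosome lengths, only the end of the last peak. Of 944 windows of 1 Mb, 847 (89.7%) held at least 1 Tinaja-lacking region, with a median of 3. The most in a window was 11, reached in 5 windows. They began at position 23000001 of chromosome 17 (11 of 98 regions), 25000001 and 22000001 of chromosome 14 (11 of 102 and 11 of 120), 25000001 of chromosome 2 (11 of 111) and 11000001 of chromosome 16 (11 of 112). The window from 30000001 of chromosome 10, which contains the block of broad peaks, held 9 of 76.

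Tinaja-lacking regions had Tinaja peaks beside them slightly less often than chromosomal regions at large. The neighbouring region on both sides had a Tinaja peak for 1557 (54.7%), against 58.0% of all chromosomal regions, and on neither side for 249 (8.75%), against 6.24%. For regions missing from Pachon only, the neighbours on both sides had a Pachon peak in 42.1%, against 42.8% of all regions. For regions missing from Surface only they had a Surface peak in 33.3%, against 47.0%. Of all neighbours of Tinaja-lacking regions, 27.0% had no Tinaja peak, against 24.1% of all chromosomal regions. Other Tinaja-lacking regions made up 5.45% of the neighbours, 1.44 times their share of 3.78% among all regions. The same ratio was 1.26 for regions missing from Pachon only and 1.51 for regions missing from Surface only. The nearest region of any class was a median of 2246 bp away from a Tinaja-lacking region, against 2793 bp for all regions. It was 2345.5 bp away for regions missing from Pachon only and 3159 bp for regions missing from Surface only.

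No more than 3 Tinaja-lacking regions followed each other directly. There were 137 runs of 2 and 9 runs of 3, while the longest run was 5 for regions missing from Pachon only and 6 for regions missing from Surface only, both larger classes, and run length was not adjusted for class size. With equal numbers of widest peaks the longest Tinaja-lacking run was 4. The 3 runs with the most covered length in Surface, a choice made among the 9 after they were seen, were on chromosomes 20, 17 and 15. On chromosome 20, positions 17757743 to 17763855, Surface peaks covered 4374 bp and Pachon peaks 2420 bp, and the nearest Tinaja peak was 12354 bp away. The run on chromosome 17, at 5079184 to 5098034, ends in a region already named above and covered 3141 bp in Surface and 3053 bp in Pachon. The run on chromosome 15, at 35410752 to 35455070, covered 2948 and 2837 bp over 44.3 kb, with a middle region of 1691 bp in Surface and 1782 bp in Pachon.

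When Surface-only and Pachon-only regions were counted along, longer stretches without a Tinaja peak appeared. Those named here were chosen after they were seen, as the stretches of at least 7 regions with 3 Tinaja-lacking ones, the most in any stretch. The one with the most regions held 9 over 44.2 kb on chromosome 17 at 23084410 to 23128605. It included 3 Surface-only and 3 Pachon-only regions. Another on chromosome 17, at 21674232 to 21722020, held fewer regions, 8, over a wider span of 47.8 kb, and 5 of them were Surface-only. On chromosome 14, at 22315661 to 22329238, 7 regions lay within 13.6 kb, 3 of them Tinaja-lacking, 1 Surface-only and 3 Pachon-only. On chromosome 16, at 24065368 to 24074513, 7 regions lay within 9.15 kb, 3 of them Tinaja-lacking and 4 Surface-only. Of all chromosomal regions 24.1% had no Tinaja peak, and the length of such stretches was not tested.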

How the data were processed

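Liver nuclei of the 3 forms, about 70000 per reaction, were tagmented for 22 to 24 min and sequenced with paired ends, per the labels' protocols. The authors deposited 1 peak list per form. Tools listed in the submitters' processing notes are MACS2, Bowtie2, SAMtools and bcl2fastq 2.20. Not given in the sources used here are the peak-calling settings, genome build, Tn5 offset shift, duplicate handling and any pooling of replicates. The deposited score was 0 for every peak, and depth is unknown. On chromosomes the narrowest peak of Surface measured 212 bp, that of Pachon 221 bp and that of Tinaja 226 bp.

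Coordinates are those of the lists, written 1-based. The reference gene table was of the assembly AstMex3 and could not be matched to the lists, whose build is not given. No gene was therefore assigned and no sequence is shown. On 4 of 25 chromosomes peaks lay beyond the table's last gene, which by itself does not show a different build. The planned gene lists, distances to gene starts and GC content were not run.

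Merging and distances used Python 3.11.15, numpy 2.4.6 and pandas 2.3.3, and were tested on simulated data against a base-by-base count. Wilson and order-statistic 95% intervals (scipy 1.17.1) cover counting error only, and neighbouring regions need not be independent. With 1 list per form no test between forms was made. Regions named are the 15 strongest, the 5 farthest from and 3 nearest to a Tinaja peak, the 3 regions of all forms with the least Tinaja overlap, the 5 windows with the most members and 3 of the longest runs. The region with 4 Pachon peaks, the block on chromosome 10 with its further regions, the window that holds it and the stretches without a Tinaja peak were added after their values were seen. Members and rules were chosen with earlier results of these data known.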

Additional observations from a re-analysis of the deposited data

Results flagged for a closer look

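Regions of the same kind were also present outside the chromosomes. On unplaced scaffolds, 1499 of 34884 regions had a Surface and a Pachon peak and no Tinaja peak, or 4.30% (Wilson 95% interval 4.09 to 4.51). They are mentioned because they lie in data that the comparisons above do not use. Of scaffold regions open in Surface and Pachon they made up 10.1%, against 8.02% on chromosomes.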

How the results depend on the processing

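No paired analysis was possible because each form has 1 peak list, and no replicate could be left out. Absence depends on a threshold and a depth that the lists do not show, and peaks under 500 bp make up most of the class. With equal numbers of widest peaks, the count was 4363 in place of 2845, the share of Surface and Pachon regions lacking Tinaja 12.4% in place of 8.02%, and the ratio of regions missing from Pachon only turned from 1.73 to 0.838. Median widths were then 421 bp (Surface) and 348 bp (Pachon), the distance to Tinaja 4090 bp, the longest run 4, and the shares on chromosomes 2 and 11 were 7.19% and 5.08%. With peaks of at least 300 bp, the share was 8.41%, the widths 512 and 439 bp and the distance 4370 bp. With peaks of at least 500 bp, a setting added after the data were seen, the count was 1710, the share 9.40%, the widths 716 and 631 bp, the distance 7509 bp and chromosome 2 stood at 3.47%. Such shifts in width follow from the settings' construction. Requiring 50% overlap gave a share of 7.72%. Peaks of 500 bp around each midpoint gave a share of 8.68% and a distance of 3224 bp. Counting only regions with no Tinaja peak within 1000 bp gave a share of 6.66%, with 4.14% on chromosome 2 and 2.02% on chromosome 11. The ratio was 1.66 to 1.76 in all settings but equal numbers of widest peaks. Of the 15 strongest regions, 15 kept the class in 5 of the 7 settings. The number was 14 with 500 bp around each midpoint and 13 with no Tinaja peak within 1000 bp. These regions were picked for broad coverage and lay at least 531 bp from a Tinaja peak, so most settings could hardly remove them. The last count repeats the distances given above, and stability of the class was not tested by these counts.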
